A study of Homo sapiens with 6 samples.

Results

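A stretch of 24 genes at 2q35 on human chromosome 2, running from NHEJ1 to SLC4A3, was examined together with 9 genes that flank it, 7 before it (TTLL4, CYP27A1, PRKAG3, WNT6, WNT10A, CDK5R2 and IHH) and 2 after it (EPHA4 and PAX3). These 33 genes are 33 of the 58870 rows of the expression table. The 24 genes of the stretch were chosen by their lower counts in THUMPD1 KO than in WT libraries, and the 9 flanking genes for contrast, so the difference between genotypes in these genes is given below as a description. Where a member is said to pass or miss the threshold of the fit across all genes, this only describes where its value lies and is no independent evidence of a difference. RNA sequencing compared 3 libraries of HEK-293T, a human line grown from embryonic kidney and here labelled Thumpd+/+ or WT, with 3 libraries of THUMPD1 KO cells of the same line, labelled Thumpd-/-. The KO line is 1 clone, grown from a single sorted cell after transfection of Cas9 with 2 guides against THUMPD1, the adaptor that directs NAT10 to acetylate cytidine in tRNA. Both lines were grown without a further treatment in DMEM at 37 °C, and total RNA was depleted of ribosomal RNA and made into stranded libraries. The labels do not say what the replicates of a line are, so p-values measure only the spread between these libraries, which may be technical.

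Neighbouring genes lie in the same stretch of chromatin, but each is transcribed from its own promoter unless a pair starts head to head from a shared one. The genes of this stretch do unrelated work. Several serve protein quality control and autophagy, in which damaged proteins and membranes are refolded, trimmed or delivered to the lysosome, and others encode sugar-handling enzymes, kinases, cytoskeletal proteins and transporters. The flanking genes before the stretch include secreted Wnt and hedgehog ligands, which most cell lines do not express.

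Depth was close among libraries, with total expected counts between 32225646 and 44099898, so that 1 CPM, the count scaled by the library total, stood for 32.2 to 44.1 read pairs. As a check of the labels, the WT libraries had 3258, 3315 and 3013 THUMPD1 counts and the KO libraries 395, 529 and 353, a log2 fold change of −2.87 ± 0.08 (SE). With 20 ways to divide the libraries 3 against 3, an exact two-sided permutation test gave p = 0.1, the smallest it can give. Summed over 7 embryonic kidney markers the level was 78.3 to 95.3 CPM in WT and 91.2 to 99.0 CPM in KO, with PAX8 at or near 0. Single markers moved in both directions. PAX2, LHX1 and SALL1 were called higher, with log2 fold changes of 0.64 ± 0.18, 0.59 ± 0.19 and 0.20 ± 0.06 (limma-voom adjusted p of 0.0231, 0.0423 and 0.0278). EYA1 was called lower (−0.46 ± 0.10, adjusted p = 0.00750), and WT1 and GATA3 were not called. Markers of hepatocytes, leukocytes and endothelium summed to at most 0.255 CPM in any library, and those of skeletal muscle to between 0.465 and 0.771 CPM. The fibroblast pair summed to 12.8 to 17.0 CPM in WT and 9.002 to 12.7 CPM in KO, all of it COL1A1, which was called lower (log2 fold change −0.48 ± 0.12, limma-voom adjusted p = 0.0160), with COL1A2 at 0. The 3 neurofilament genes known from HEK-293 lines summed to 116 to 135 CPM in WT and 109 to 123 CPM in KO. Among them NEFM fell by 2.75 ± 0.21 (adjusted p = 1.30e-05). NEFL and INA went the other way, rising by 0.31 ± 0.06 and 0.33 ± 0.06 (limma-voom adjusted p of 0.00443 and 0.00283). The part of these differences in the results was not tested.

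On GRCh38 the stretch spans chr2:219069355-219641980, or 573 kb, with 13 of its genes on the plus strand and 11 on the minus strand. The expression filter, which asked for 1 CPM or more in 3 or more libraries, kept 22 of the 33 members, of which 19 lie in the stretch and 3 (TTLL4, EPHA4 and PAX3) in the flanks. The other 11 members had too few reads to enter the fit and are given by their counts. The table holds 20 further rows between NHEJ1 and SLC4A3, of which 12 had 0 counts in every library and 1, a readthrough gene, was expressed. All positions, strands and gene types are those of GENCODE 44, in which every member is a protein-coding gene.

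Promoter sequence is shown for the gene with the largest difference, for the gene with the next lowest THUMPD1 KO level relative to WT among expressed genes of the stretch, for a pair of head-to-head genes and for a flanking gene that was not lower. RefSeq windows on GRCh38.p14 were found for 29 of the 33 members, and ANKZF1, ASIC4, DES and TTLL4 had none. Each line gives 250 bases that end just before the RefSeq start, 5′ to 3′ on the strand of the gene, except for the pair, which is read on the plus strand. ABCB6 lies at chr2:219218959-219219208 (minus strand), GMPPA at chr2:219498641-219498890 (plus strand) and PAX3 at chr2:222298999-222299248 (minus strand). The 65 bases of the pair, chr2:219229718-219229782, are all that separates the outermost GENCODE starts of ATG9A and ANKZF1. The ABCB6 window lies within the span of the readthrough gene described further on. Capitals mark motif matches on either strand. The GC box was searched as GGGCGG, and the CCAAT box by the letters of its name. The TATA box was searched as TATAAA, and the E-box was searched as CACGTG.
ABCB6: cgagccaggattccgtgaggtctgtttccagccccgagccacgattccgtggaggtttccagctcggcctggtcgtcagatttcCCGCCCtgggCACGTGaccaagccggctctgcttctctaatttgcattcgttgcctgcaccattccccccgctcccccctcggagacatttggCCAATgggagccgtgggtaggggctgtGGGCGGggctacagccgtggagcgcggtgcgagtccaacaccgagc
GMPPA: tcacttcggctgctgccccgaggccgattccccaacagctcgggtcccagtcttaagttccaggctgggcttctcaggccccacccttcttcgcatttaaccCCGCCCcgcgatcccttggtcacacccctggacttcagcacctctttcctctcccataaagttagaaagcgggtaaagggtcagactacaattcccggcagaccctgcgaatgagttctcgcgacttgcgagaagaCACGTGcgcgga
ATG9A-ANKZF1: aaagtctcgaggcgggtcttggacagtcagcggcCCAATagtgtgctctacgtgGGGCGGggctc
PAX3: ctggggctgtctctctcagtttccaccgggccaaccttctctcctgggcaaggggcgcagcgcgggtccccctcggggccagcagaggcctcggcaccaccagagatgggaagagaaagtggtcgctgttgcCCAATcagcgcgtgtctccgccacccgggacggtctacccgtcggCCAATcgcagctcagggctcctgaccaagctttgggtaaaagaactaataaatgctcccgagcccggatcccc

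The printed ABCB6 sequence holds a GC box in both orientations, a CCAAT box and an E-box, GMPPA a GC box and an E-box, the ATG9A-ANKZF1 pair a GC box and a CCAAT box, and PAX3 only CCAAT boxes. A TATA box is in none of the 4 sequences. Over windows of 300 bases, which reach 50 bases past the start, 14 of the 18 found for expressed stretch genes (77.8%) held a GC box, beside 66.2% of the 15819 windows of all expressed genes and 44.9% of all 34943 RefSeq windows. A CCAAT box was in 22.2% of the 18, beside 35.1% for expressed genes and 34.6% for all windows, and a TATA box in 5.56%, beside 6.43% and 11.6%. An E-box was in 22.2%, beside 9.28% and 7.23%. The windows of RETREG2 and CNPPD1 overlap, and they share both of their E-boxes. Median GC content was 67.2% for the 18 stretch windows, 65.0% for expressed genes and 58.7% for all windows. Each of the 18 stretch genes gave 1 window, the one nearest its outermost GENCODE start. The comparison sets hold every distinct RefSeq window, so a gene can count more than once in them.

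All 19 expressed genes of the stretch had lower levels in THUMPD1 KO than in WT cells. Their median log2 fold change was −0.69, beside 0.02 for all 15088 genes tested, and the median KO level was 61.7% of the WT level. In every one of the 19, each KO library lay below each WT library, a pattern seen in 17.6% of all genes tested. By limma-voom, 18 of the 19 were past an adjusted p of 0.05 in the lower direction, against 13.0% of all genes tested. These counts follow from how the genes were chosen. With bulk RNA, less RNA per cell and fewer cells that express a gene cannot be told apart.

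**Figure D1:**
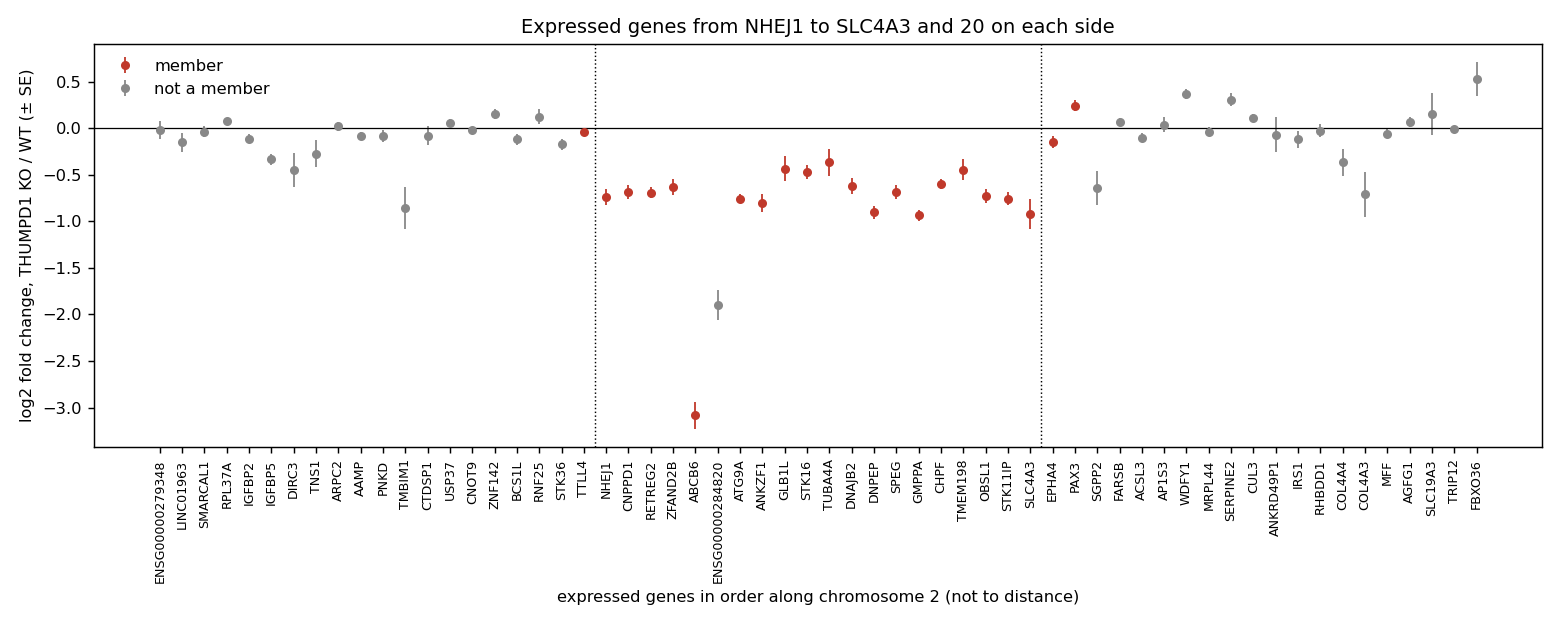
Log2 fold change (THUMPD1 KO over WT, points, with SE as bars) of expressed genes in their order along chromosome 2, from 20 genes before NHEJ1 to 20 genes after SLC4A3, with dotted lines at the ends of the stretch. Every gene between the lines lies below 0, from −0.37 for TUBA4A to −3.08 for ABCB6, and the genes on either side have medians of −0.08 and −0.02.

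Summed over all 24 genes of the stretch, the level was 463, 432 and 434 CPM in WT libraries and 272, 252 and 267 CPM in KO libraries. The KO sum was 59.5% of the WT sum. Taken gene by gene, the median over the 19 expressed genes was 64.8, 60.1 and 61.1% of the WT mean in KO replicates 1, 2 and 3, and 103, 98.6 and 98.1% in WT replicates 1, 2 and 3. The 3 KO libraries therefore stood together, below the 3 WT libraries.

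Apart from ABCB6, the differences lay in a narrower range but were not all equal in size. Without ABCB6 the log2 fold changes of the other 18 genes ran from −0.94 to −0.37. Their SD was 0.17, beside a median SE of 0.08, and 13 of the 18 lay within 2 SE of their median of −0.69. The 5 genes outside that range were GMPPA and DNPEP, which were lower than the median, and STK16, TMEM198 and TUBA4A, which were higher. Across these 18 genes, which share the same 6 libraries, Spearman's rho between log2 fold change and gene order was −0.17.

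**Figure D2:**
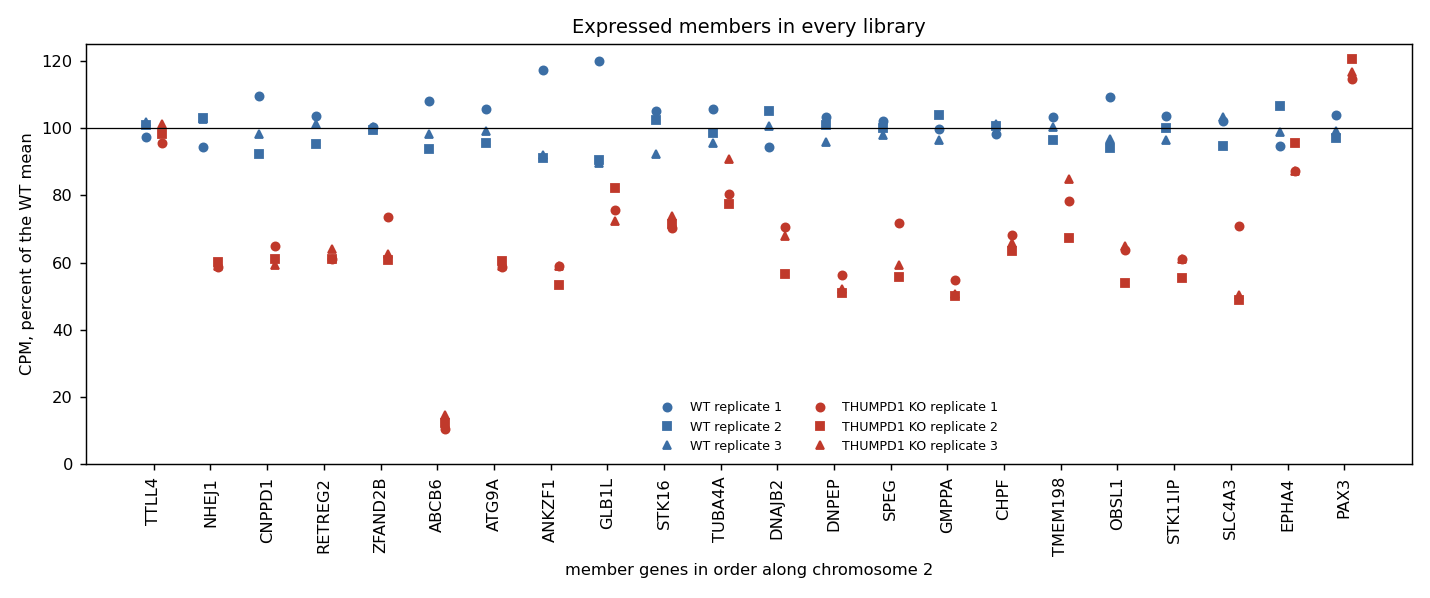
CPM of each expressed member in each of the 6 libraries, as a percent of its WT mean, with WT in blue and THUMPD1 KO in red and a marker shape for each replicate number. In the 18 stretch genes other than ABCB6 the KO points lie between 48.8 and 90.6% and the WT points between 89.5 and 120%, while in TTLL4 and EPHA4 the colours overlap and in PAX3 red lies above blue.

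The group for protein quality control and autophagy held 6 members, all expressed, with log2 fold changes between −0.90 and −0.62. ATG9A (ENSG00000198925.12, chr2:219219380-219229717), a membrane protein that scrambles lipids on growing autophagosomes, was at 81.7, 73.9 and 76.6 CPM in WT and at 45.5, 46.7 and 45.7 CPM in KO. Its log2 fold change was −0.76 ± 0.05 (SE), and the KO libraries lay close together and far below the WT libraries. Per length it was the highest gene of the stretch, at 16.4 RPKM, which is CPM per kilobase of exon, in WT. RETREG2 (ENSG00000144567.11), of the family of endoplasmic reticulum receptors for autophagy, was at 44.01, 40.5 and 43.1 CPM in WT and at 25.9, 25.9 and 27.3 CPM in KO. The 2 genotypes were well apart in this gene too, with a log2 fold change of −0.69 ± 0.06.

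ANKZF1 (ENSG00000163516.13), a hydrolase that frees unfinished chains from stalled ribosomes, was at 33.2, 25.8 and 26.0 CPM in WT and at 16.7, 15.1 and 16.7 CPM in KO. WT replicate 1 stood above the other WT libraries, and the KO libraries were below all 3. ZFAND2B, a zinc finger protein that works with the p97 unfoldase, was at 10.2 CPM in each WT library and at 7.51, 6.21 and 6.39 CPM in KO. DNAJB2, a J protein that hands substrates to HSP70, was at 16.5, 18.4 and 17.6 CPM in WT and at 12.3, 9.91 and 11.9 CPM in KO. The KO level was 65.7% of WT for ZFAND2B and 65.1% for DNAJB2. DNPEP (ENSG00000123992.19), an aspartyl aminopeptidase of the cytosol, was at 21.4, 20.9 and 19.9 CPM in WT and at 11.7, 10.5 and 10.8 CPM in KO, or 53.2% of the WT level.

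NHEJ1, the first gene of the stretch (ENSG00000187736.12, chr2:219069355-219160869), encodes XLF, which aligns broken DNA ends for ligation. Its level was 16.3, 17.8 and 17.8 CPM in WT and 10.2, 10.4 and 10.2 CPM in KO, with a log2 fold change of −0.74 ± 0.08. The KO values were nearly equal and below the WT values. Adding the reads of ENSG00000280537, an overlapping gene that joins NHEJ1 to SLC23A3, gave −0.68 ± 0.08.

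Among the genes for glycans, GMPPA (ENSG00000144591.18, chr2:219498865-219513898) had the lowest KO level relative to WT after ABCB6 among expressed genes of the stretch. It encodes the regulatory subunit of the enzyme that makes GDP-mannose. Its level was 36.3, 37.9 and 35.1 CPM in WT and 19.995, 18.3 and 18.4 CPM in KO, 51.8% of WT, with a log2 fold change of −0.94 ± 0.06. CHPF, which helps polymerize chondroitin, was at 32.7, 33.5 and 33.7 CPM in WT and at 22.7, 21.1 and 21.9 CPM in KO, a log2 fold change of −0.60 ± 0.05. GLB1L, a relative of lysosomal beta-galactosidase, was at 4.53, 3.42 and 3.38 CPM in WT and at 2.86, 3.11 and 2.73 CPM in KO. WT replicate 1 was the highest of these, the log2 fold change was −0.43 ± 0.13, and without that library it was −0.33 and no longer past the threshold. GLB1L also missed the threshold without each of the other 5 libraries in turn and by edgeR and DESeq2.

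All 3 kinases or kinase partners were lower in KO. SPEG, a kinase known from striated muscle, was at 20.7, 20.3 and 19.9 CPM in WT and at 14.6, 11.3 and 12.04 CPM in KO. STK11IP, a binding partner of the kinase LKB1, was at 17.6, 17.0 and 16.4 CPM in WT and at 10.4, 9.39 and 10.4 CPM in KO. STK16, a kinase of the Golgi, was at 18.2, 17.7 and 16.0 CPM in WT and at 12.1, 12.3 and 12.8 CPM in KO. The KO level was 62.3% of WT for SPEG and 59.2% for STK11IP, and the smaller difference in STK16 left 71.9%.

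Of the 3 cytoskeletal members, OBSL1 and TUBA4A were expressed. OBSL1 (ENSG00000124006.15), an adaptor of the 3M ubiquitin ligase complex, was at 62.7, 54.0 and 55.6 CPM in WT and at 36.6, 30.9 and 37.2 CPM in KO, a log2 fold change of −0.73 ± 0.07. TUBA4A, an alpha-tubulin, was at 2.14, 1.99 and 1.93 CPM in WT and at 1.62, 1.56 and 1.83 CPM in KO. Among expressed genes of the stretch TUBA4A had the smallest difference, −0.37 ± 0.15, and was the 1 expressed gene of the 19 that did not pass the threshold. Alpha-tubulins are close in sequence, so it is uncertain which of them a read came from. Per length TUBA4A was also the lowest expressed gene of the stretch, at 0.55 RPKM in WT.

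CNPPD1, a protein with a cyclin-like domain, was at 20.7, 17.5 and 18.6 CPM in WT and at 12.3, 11.6 and 11.2 CPM in KO. TMEM198, a membrane protein linked to Wnt signalling, was at 5.67, 5.28 and 5.50 CPM in WT and at 4.30, 3.70 and 4.65 CPM in KO. SLC4A3, a chloride and bicarbonate exchanger and the last gene of the stretch (ENSG00000114923.17, chr2:219627394-219641980), was at 2.90, 2.68 and 2.92 CPM in WT and at 2.01, 1.38 and 1.43 CPM in KO. Log2 fold changes were −0.69 ± 0.08 for CNPPD1, −0.45 ± 0.11 for TMEM198 and −0.92 ± 0.16 for SLC4A3, each with all KO libraries below all WT libraries. TMEM198 did not pass the threshold when KO replicate 2, its lowest library, was left out, at −0.37.

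ABCB6 (ENSG00000115657.14, chr2:219209772-219218994, minus strand) differed far more than the rest. It encodes a transporter of porphyrins, the precursors of heme. Its expected counts were 585, 472 and 471 for WT, against 51.7, 68.7 and 60.9 for KO, or 13.9, 12.1 and 12.6 CPM against 1.33, 1.56 and 1.89 CPM. The KO level was 12.4% of the WT level, and the log2 fold change was −3.08 ± 0.14.

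An annotated readthrough gene, ENSG00000284820.1 (chr2:219209772-219222738, minus strand), covers ABCB6 and the 3′ end of ATG9A and shares exons with both, so the division of reads among the 3 is an estimate by RSEM. The readthrough gene, which is no member, was at 8.01, 8.67 and 10.2 CPM in WT and at 2.41, 2.14 and 2.94 CPM in KO, 27.8% of the WT level. With the reads of ABCB6 and the readthrough gene summed, the KO level was 18.7% of WT and the log2 fold change −2.46 ± 0.11. With those of ATG9A added as well it was 50.4% and −0.995 ± 0.05. Under each of these sums the KO libraries stayed below the WT libraries.

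**Figure D3:**
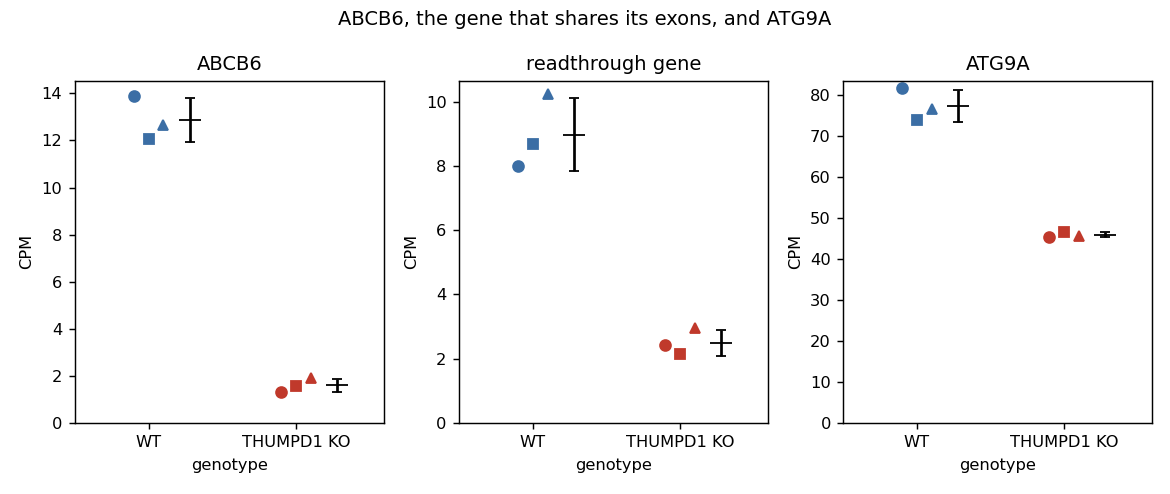
CPM of ABCB6, of the readthrough gene that shares its exons and of ATG9A in each library by genotype, with the mean and SD as black bars. The KO means are 12.4, 27.8 and 59.3% of the WT means in that order.

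Several members start head to head or overlap on opposite strands. ATG9A and ANKZF1, whose outermost GENCODE starts are 66 bases apart, had log2 fold changes of −0.76 and −0.80. CNPPD1 and RETREG2, which overlap, had −0.69 and −0.69. GLB1L and STK16, which overlap by a few bases at their starts, had −0.43 and −0.47, and CHPF and TMEM198 had −0.60 and −0.45. The values lay farther apart for TUBA4A and DNAJB2, at −0.37 and −0.62, whose outermost GENCODE starts are 1440 bases apart. The RefSeq windows of this pair do not lie that close, at chr2:219253869-219254168 for TUBA4A and chr2:219279116-219279415 for DNAJB2. The libraries were stranded, but whether the counting used strand is not given in the sources used here, and without strand reads in an overlap cannot be assigned to 1 strand with certainty.

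The other 5 members of the stretch were at or near the limit of detection. SLC23A3, an orphan member of the ascorbate transporter family, had 19.8, 21.3 and 19.4 expected counts in WT libraries against 19.8, 14.3 and 22.0 in KO libraries, which overlap, and part of them were divided with the gene that joins it to NHEJ1. ASIC4, an acid-sensing channel subunit, had 10, 8 and 10 counts in WT and 21, 13 and 9 in KO. DES, the muscle filament desmin, had 15, 15 and 6 counts in WT and 5, 7 and 5 in KO. INHA, the inhibin alpha subunit, which overlaps OBSL1 on the other strand, had 18, 12 and 14 counts in WT and 3, 1 and 8 in KO. PTPRN, a protein of dense-core vesicles, had at most 1 count in any library. No lower KO level was detectable in SLC23A3 and ASIC4 at this depth, and in CPM the KO libraries of ASIC4 were all above the WT libraries. The KO libraries of INHA and DES were all below the WT libraries in CPM. For DES this was nearly a tie, with 0.159 CPM in KO replicate 2 (7 counts) and 0.161 CPM in WT replicate 3 (6 counts).

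**Figure D4:**
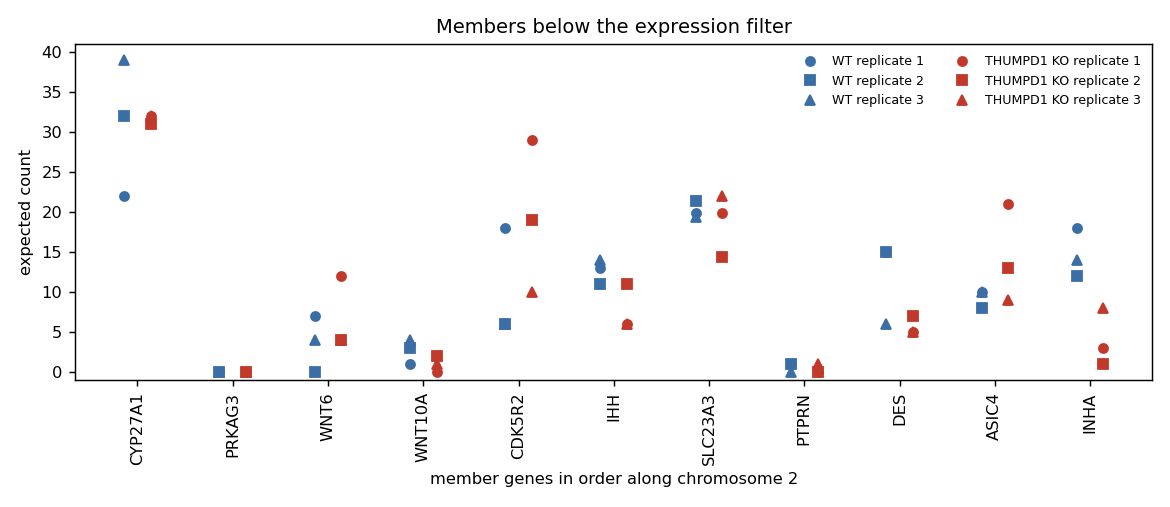
Expected counts of the 11 members below the expression filter in each library, with WT in blue and THUMPD1 KO in red. The highest count is 39, for CYP27A1 in WT replicate 3, and PRKAG3 is at 0 throughout.

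Between TTLL4 and NHEJ1 lie 314 kb in which none of the 21 annotated genes was expressed. Expressed genes therefore place the near edge of the lower genes no more closely than that gap. Summed over the 3 libraries of each genotype, counts of the 21 genes were 257 in WT and 255 in KO. CYP27A1 gave 93 and 95 of these, CDK5R2 30 and 58, and IHH 38 and 23, so single genes differed in both directions. Where in the gap the edge lies was not tested. TTLL4 (ENSG00000135912.11, chr2:218710835-218755416), an enzyme that adds glutamate chains to proteins such as tubulin, was at 84.3, 87.5 and 88.4 CPM in WT and at 82.9, 85.1 and 87.9 CPM in KO, a log2 fold change of −0.04 ± 0.04. Its libraries overlapped between genotypes, whereas those of NHEJ1, the next expressed gene, did not. On the far side, 1.78 Mb separate SLC4A3 from EPHA4 and hold no expressed gene. EPHA4 (ENSG00000116106.12, chr2:221418027-221574202), a receptor tyrosine kinase for ephrins, was at 44.01, 49.6 and 45.9 CPM in WT and at 40.6, 44.5 and 40.6 CPM in KO. Its log2 fold change was −0.15 ± 0.07, the genotypes overlapped, and it passed the threshold with the replicate number as a block, at −0.16, but not in the fit without the block. PAX3 (ENSG00000135903.19, chr2:222199887-222298998), a transcription factor of the neural crest and muscle lineages, was higher in KO, at 23.8, 25.01 and 24.2 CPM against 21.6, 20.1 and 20.5 CPM in WT. Its log2 fold change of 0.24 ± 0.06 passed the threshold in the higher direction, as did 13.7% of all genes tested, but not without WT replicate 2 (0.23) or without KO replicate 2 (0.20).

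The remaining flanking members were nearly silent. CYP27A1, a sterol hydroxylase of mitochondria, had 22, 32 and 39 counts in WT and 32, 31 and 32 in KO. CDK5R2, an activator of the kinase CDK5, had 18, 6 and 6 counts in WT and 29, 19 and 10 in KO, and IHH, the Indian hedgehog ligand, had 13, 11 and 14 in WT and 6, 11 and 6 in KO. The Wnt ligands WNT6 and WNT10A had at most 12 and 4 counts in any library. PRKAG3, the muscle form of the gamma subunit of AMPK, had 0 counts in all 6 libraries, and a count of 0 allows up to 3 counts in a library. In CPM the KO libraries of IHH were all below the WT libraries, at 0.154, 0.249 and 0.186 against 0.309, 0.281 and 0.376. The other 5 overlapped or were equal between genotypes, and all 6 were below the filter.

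Genes next to the members were tested as a contrast. Of the 6 expressed genes in the list before TTLL4 (USP37, CNOT9, ZNF142, BCS1L, RNF25 and STK36), limma-voom called 0, with 2 at an unadjusted p under 0.05, and edgeR and DESeq2 each called 1. Their log2 fold changes ran from −0.17 to 0.16 with a median of 0.02. ZNF142, a zinc finger protein, had 0.16 ± 0.05 (adjusted p = 0.0504) and STK36, a kinase of cilia and hedgehog signalling, −0.17 ± 0.06 (adjusted p = 0.0633). With the replicate block the adjusted p was 0.0161 for ZNF142 and 0.0459 for STK36. The seventh gene of that list, PLCD4, had 15 counts in WT and 36 in KO over 3 libraries each.

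After PAX3, 3 of 6 listed genes were expressed, and limma-voom called 1 of them. SGPP2, a sphingosine-1-phosphate phosphatase, fell by 0.64 ± 0.18 on the log2 scale (adjusted p = 0.0236), from 3.64 ± 0.43 to 2.50 ± 0.72 CPM (SD, n = 3), with overlap between genotypes. FARSB, a subunit of phenylalanyl-tRNA synthetase, had 0.06 ± 0.04 and ACSL3, an acyl-CoA synthetase, −0.10 ± 0.05, neither past the threshold. CCDC140, MOGAT1 and KCNE4 were below the filter. Over the 20 expressed genes before NHEJ1, 2 were called, both lower, and over the 20 after SLC4A3, 2 were called lower and 3 higher. For comparison, 26.7% of all genes tested were called in either direction, and 35.1% with the replicate block.

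Genes elsewhere in the genome that work with the members' proteins were listed by pathway. Of 115 such genes 109 were expressed, and 28 passed the threshold by limma-voom, 11 higher and 17 lower, or 25.7%. The median log2 fold change of the 109 was 0.00, and the lowest median among the 11 lists was −0.18. Of the called genes named below, XYLT1, PMM2 and STUB1, all lower, lie on chromosome 16 at lower coordinates than THUMPD1. XRCC6, UFD1 and TTLL12, also lower, lie on chromosome 22. MAP1LC3B, on chromosome 16 beyond THUMPD1, was higher. GLI2, lower, lies on chromosome 2 (chr2:120735623-120992653), the chromosome of the stretch, and the other called lower genes named lie on other chromosomes. The part of position in these values was not tested.

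**Figure D5:**
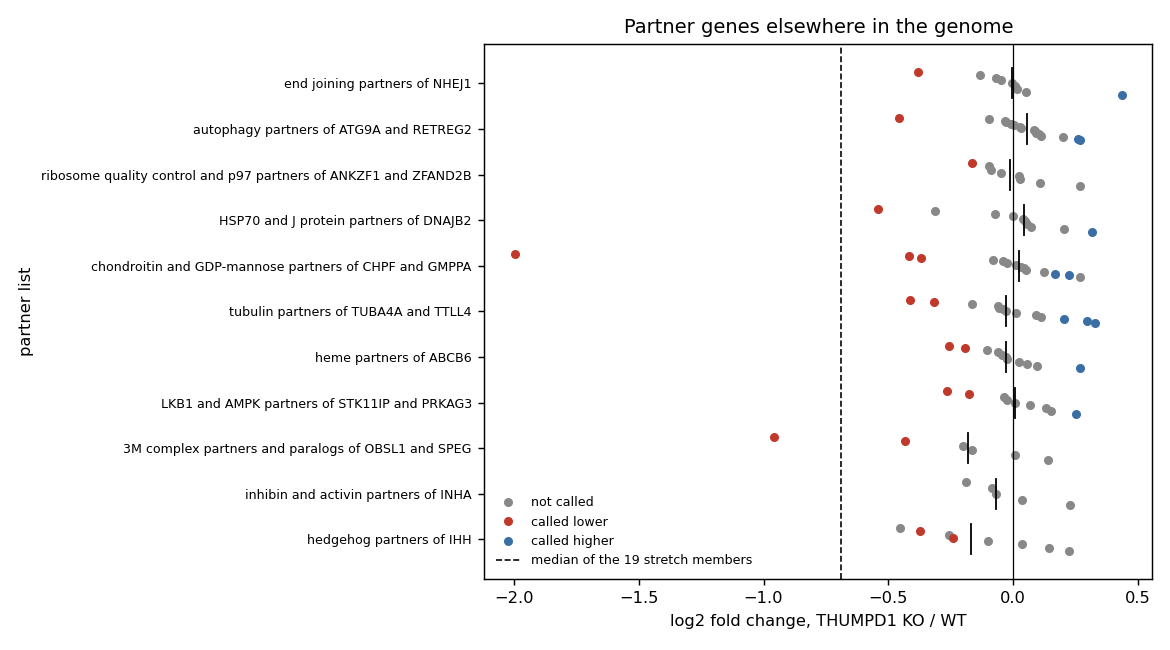
Log2 fold change (THUMPD1 KO over WT) of expressed partner genes in 11 lists, with the list median as a short black line, called genes in colour and the median of the 19 expressed stretch members as a dashed line at −0.69. XYLT1 at −1.996 is the lowest of the partner genes, and the list medians lie close to 0.

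Among 9 end joining genes beside NHEJ1, XRCC6, which encodes the Ku70 subunit of the DNA end-binding dimer, fell from 673 ± 14 to 514 ± 13 CPM (log2 fold change −0.38 ± 0.04, adjusted p = 0.000120). LIG4, the ligase that XLF assists, rose from 12.3 ± 1.0 to 16.4 ± 1.0 CPM (0.44 ± 0.09, adjusted p = 0.00675), and the other 7 were not called. Of 16 autophagy genes, MAP1LC3B (0.26 ± 0.06) and ATG101 (0.27 ± 0.09) rose, with adjusted p of 0.00582 and 0.0422. RETREG1, a paralog of RETREG2, fell by 0.46 ± 0.12 (adjusted p = 0.0179). Thus limma-voom called 2 autophagy genes higher and 1 lower, and ATG101 was called by neither edgeR nor DESeq2.

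In the list for ribosome quality control and p97, 1 of 8 genes was called. UFD1, a p97 adaptor, fell by 0.16 ± 0.04 (adjusted p = 0.0199). Of 10 HSP70 and J protein genes, STUB1, an HSP70-bound ubiquitin ligase, fell by 0.54 ± 0.05 (adjusted p = 4.52e-05) and BAG1, a nucleotide exchange factor, rose by 0.31 ± 0.05 (adjusted p = 0.000853). With the replicate block 4 of the 10 were called, 2 in each direction.

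The list for chondroitin and GDP-mannose held 14 expressed genes, of which 2 rose and 3 fell. XYLT1, which starts glycosaminoglycan chains, fell from 6.74 ± 1.09 to 1.77 ± 0.40 CPM (−1.996 ± 0.17, adjusted p = 2.42e-05), and PMM2, which supplies mannose-1-phosphate to the GMPPA enzyme, fell by 0.42 ± 0.08 (adjusted p = 0.00298). CHPF2, the paralog of CHPF, rose by 0.22 ± 0.04 (adjusted p = 0.00433). For tubulin, 3 of 13 genes rose and 2 fell. The beta-tubulins TUBB6 and TUBB4B rose by 0.29 ± 0.06 and 0.33 ± 0.07, and TTLL12, of the same family as TTLL4, fell by 0.41 ± 0.06, with adjusted p of 0.00602, 0.00741 and 0.000410.

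Heme synthesis and transport was represented by 11 genes, with a median log2 fold change of −0.03. UROD rose by 0.27 ± 0.06, while PPOX and FECH, which act on the last steps of the pathway, fell by 0.26 ± 0.08 and 0.19 ± 0.06, with adjusted p of 0.00805, 0.0339 and 0.0361. For LKB1 and AMPK, PRKAB1 rose by 0.25 ± 0.06 while PRKAA2 and PRKAG1 fell by 0.26 ± 0.05 and 0.18 ± 0.05, with adjusted p of 0.00725, 0.00181 and 0.0254. That made 3 of 9 called, and 5 of 9 with the replicate block.

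The list of 3M complex genes and paralogs of OBSL1 and SPEG had 2 of 6 called, both lower. CCDC8, a subunit of the 3M complex, fell by 0.43 ± 0.06 (adjusted p = 0.000740). Among 8 hedgehog genes GLI2 and PTCH1, a transcription factor and the receptor of the pathway, fell by 0.37 ± 0.06 and 0.24 ± 0.05, with adjusted p of 0.00140 and 0.00498. Limma-voom called 0 of the 5 expressed inhibin and activin genes, with 1 at an unadjusted p under 0.05 and 1 called by each of edgeR and DESeq2. The gene nearest the threshold was ACVR2A, an activin receptor, at −0.19 ± 0.07 (adjusted p = 0.0595, and 0.0282 with the replicate block). TGFBR3, an inhibin co-receptor, had −0.09 ± 0.06 (adjusted p = 0.309) and INHBB 0.23 ± 0.16 (adjusted p = 0.339).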

How the data were processed

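RNA-seq of 6 HEK-293T libraries (3 WT, 3 THUMPD1 KO) was analysed, grouped by the sample labels. The authors used STAR for alignment to hg38 and RSEM for gene-level quantification, and the submitters' processing notes also name limma, with no version given in the sources used here. The deposited table holds expected counts, which need not be whole and are not scaled between libraries. The members, the lists and the rule for the genes named were chosen with earlier results of these data known. The rule takes all 33 members, THUMPD1, expressed genes from TTLL4 to PAX3, genes of the neighbour lists and, from each partner list, at most 3 called genes with the smallest adjusted p, or those with the smallest p where none was called. Of the genes under this rule, 1 is not reported here. CPM were computed on total counts and RPKM on the union of GENCODE 44 exons. The study names GENCODE 46, and the positions here are from GENCODE 44 on the same genome build.

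The 15088 genes at 1 CPM or more in 3 or more libraries went through quantile normalization and limma-voom in R 4.3.3 (limma version 3.58.1), with genotype as the only term. P values were two-sided and Benjamini-Hochberg adjusted over all genes (threshold 0.05). Alternatives were TMM or total-count scaling, other CPM filters, edgeR 4.0.16 (quasi-likelihood) or DESeq2 1.42.0 on counts rounded to whole numbers, log2 ratios of mean CPM, a replicate block, and fits that omitted 1 library each. The sums of overlapping genes were added after seeing the data. The scripts were tested on simulated data. Deviations from the genotype means correlated at 0.171, 0.147 and 0.138 for libraries with the same replicate number and at −0.140 to 0.0194 for others (15088 genes), so the numbers were taken to pair the libraries. Replicates of a genotype differed by more than sampling noise, with a chi-square per degree of freedom of 4.29 to 18.3. At these depths a count of 0 allows up to 3 counts, or 0.0680 to 0.0931 CPM, a limit that covers counting error only.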

Additional observations from a re-analysis of the deposited data

How the results depend on the processing

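The median log2 fold change of the expressed stretch genes stayed between −0.72 and −0.69 under every alternative run, and THUMPD1 stayed between −2.96 and −2.79. No expressed member's value changed sign under any of them. Of the expressed members' values under the alternatives, 324 moved by less than 1 residual SD and 9 by more, among them the sums that added reads to ABCB6. The number of all genes called was 4025 and, with 1 library left out, 2663 at the lowest (KO replicate 2 omitted) and 4245 at the highest (WT replicate 1 omitted). Members called were 19, and 16 to 19 with a library left out. The replicate block gave 5297 called genes, 20 members and 36 partner genes, against 28 partner genes without it. Of the members and the neighbour and partner genes named, the paired fit changed the calls of EPHA4, ZNF142, STK36 and ACVR2A and no other. It also changed those of DIRC3, CUL3 and COL4A4, which are named further on. Besides the counts given for 2 partner lists, it called 1 more gene in each of the autophagy, tubulin and hedgehog lists. GLB1L also missed the threshold with TMM or total-count scaling and without a CPM filter, and without that filter INHA was called. No alternative could replace the RSEM division of reads among ABCB6, its readthrough gene and ATG9A, and the strand setting of the counting was not tested. The KO line is 1 clone, so genotype and clone cannot be told apart.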

Other observations

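Some expressed genes farther out on chromosome 2 passed the threshold, and they were picked after their values were seen. Before the stretch, IGFBP5, an insulin-like growth factor binding protein, fell from 39.4 ± 1.6 to 31.2 ± 1.7 CPM (SD, n = 3, log2 fold change −0.33 ± 0.06 SE, limma-voom adjusted p = 0.00174), and TMBIM1, a membrane protein of lysosomes and endosomes, fell from 1.90 ± 0.68 to 1.13 ± 0.14 CPM (−0.85 ± 0.23, adjusted p = 0.0172). After it, WDFY1 rose from 54.4 ± 2.4 to 70.1 ± 4.8 CPM (0.37 ± 0.05, adjusted p = 0.000731) and SERPINE2, a secreted protease inhibitor, rose from 20.7 ± 2.0 to 25.3 ± 1.4 CPM (0.31 ± 0.07, adjusted p = 0.0105). COL4A3, a basement membrane collagen, fell from 1.29 ± 0.32 to 0.90 ± 0.23 CPM with overlap between genotypes (−0.71 ± 0.24, adjusted p = 0.0478). Genes between these and the stretch were tested and were not called by limma-voom, apart from SGPP2 and PAX3. With the replicate block DIRC3, CUL3 and COL4A4 were called as well, besides ZNF142, STK36 and EPHA4.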
